A study of Homo sapiens with 6 samples.

Results

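The genes described are 10 regulators of the G1 phase and of senescence, chosen by symbol: the Cip/Kip inhibitors CDKN1B and CDKN1C, the INK4 inhibitors CDKN2A, CDKN2B, CDKN2C and CDKN2D, the D-type cyclins CCND1 and CCND3, the retinoblastoma gene RB1 and the lamin gene LMNB1. They are 10 of the 29804 gene symbols in the deposited count table. All 10 passed the filter on low counts and were among the 14672 genes tested. The cells were 22Rv1, a line of prostate carcinoma epithelial cells, in 3 groups of 2 libraries that the labels call biological replicates. WT cells were untreated and harvested at 0 weeks, age matched (AM) cells were cultured for 6 weeks without drug, and 6WP cells were cultured for 6 weeks with daily exposure, on week days, to 1 µg/ml of phleomycin, a radiomimetic drug that breaks DNA. All groups carry the genotype label WT, none an engineered allele, and the 6WP population consists of cells that survived the exposures. The question of the comparisons is how expression differs between cells that lived through repeated DNA damage, their parental cells and cells kept in culture for the same time.

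Cells enter S phase when cyclin-dependent kinases inactivate RB, the pocket protein that holds E2F factors in check. D-type cyclins activate CDK4 and CDK6, INK4 proteins bind these kinases and keep cyclin D away, and Cip/Kip proteins bind assembled cyclin-CDK complexes. In senescence, a lasting exit from the cell cycle that DNA damage can trigger, INK4 and Cip/Kip inhibitors often accumulate, proliferation genes fall and lamin B1, a filament protein of the nuclear envelope, is lost.

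Promoters are shown for 3 of the 4 genes that fell in 6WP against AM cells, and for CDKN2A because its counts pool the transcripts of separate promoters. The sequences are the 250 bases before the start site, 5′ to 3′ on the strand of the gene, from RefSeq on GRCh38.p14, and capitals mark GC boxes (GGGCGG or its complement CCGCCC). For LMNB1, CCND3 and CDKN2C the window before the canonical start in GENCODE is given. For CDKN2A, the distal window precedes the first exon of p14ARF and the proximal window that of p16INK4a, and the distal window holds 0 GC boxes.
CCND3, chr6:41941809-41942058, minus strand: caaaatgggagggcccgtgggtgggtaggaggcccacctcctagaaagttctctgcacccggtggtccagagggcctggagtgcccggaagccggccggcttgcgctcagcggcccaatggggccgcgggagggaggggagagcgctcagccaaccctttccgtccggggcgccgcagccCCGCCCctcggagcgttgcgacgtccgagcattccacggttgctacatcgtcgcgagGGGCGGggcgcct
LMNB1, chr5:126776886-126777135, plus strand: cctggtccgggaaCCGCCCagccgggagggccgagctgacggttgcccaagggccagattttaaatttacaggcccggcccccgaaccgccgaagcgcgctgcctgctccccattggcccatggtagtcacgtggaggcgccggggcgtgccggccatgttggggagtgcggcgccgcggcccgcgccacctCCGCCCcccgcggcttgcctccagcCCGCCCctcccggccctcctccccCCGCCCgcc
CDKN2C, chr1:50969995-50970244, plus strand: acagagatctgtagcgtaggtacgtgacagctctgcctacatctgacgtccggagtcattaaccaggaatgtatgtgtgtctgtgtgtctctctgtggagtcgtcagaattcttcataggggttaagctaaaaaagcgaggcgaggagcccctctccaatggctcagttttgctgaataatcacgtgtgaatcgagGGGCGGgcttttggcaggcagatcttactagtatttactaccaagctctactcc
CDKN2A distal, chr9:21995325-21995574, minus strand: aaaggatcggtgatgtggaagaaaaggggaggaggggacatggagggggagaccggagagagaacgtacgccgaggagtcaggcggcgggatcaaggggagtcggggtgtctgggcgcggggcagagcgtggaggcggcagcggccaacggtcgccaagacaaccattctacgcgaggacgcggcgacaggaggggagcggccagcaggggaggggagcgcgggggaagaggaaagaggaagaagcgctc
CDKN2A proximal, chr9:21974858-21975107, minus strand: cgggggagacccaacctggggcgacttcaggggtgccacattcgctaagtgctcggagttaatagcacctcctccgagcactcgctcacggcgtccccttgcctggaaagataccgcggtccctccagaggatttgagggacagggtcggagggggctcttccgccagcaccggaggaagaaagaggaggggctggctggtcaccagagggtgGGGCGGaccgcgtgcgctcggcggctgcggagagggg
RefSeq windows were at hand for 8 of the 10 genes, 14 windows in all. The window of RB1 precedes a start site 172699 bases from the canonical one, so the main RB1 promoter was not searched. A GC box was found in 9 of the 14 windows, and in 42.6% of all 35116 windows of this length. The windows shown differ widely in base composition: G and C made up 75.6% of the LMNB1 window, 71.2% of the CCND3 window, 66.8% of each CDKN2A window and 48.8% of the CDKN2C window. This depends on the start site. At an LMNB1 start site 513 bases from the canonical one the share was 48.4%. At CDKN2C start sites 1539 and 9500 bases from the canonical one it was 77.2% and 45.6%. The E2F words TTTCCCGC, TTTCGCGC, TTTGCCGC and TTTGGCGC, searched on both strands, occurred in 0 of the 14 windows and in 2.79% of all windows. The cell cycle homology words TTTGAA and TTCGAA occurred in 0 of the 14 and in 14.3% of all windows. With so few windows, several of them from the same gene, a count of 0 does not show that these genes lack such sites. Bases after the start site were not searched.

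Library totals ranged from 21222201 to 35311945 counts, and 3 counts, taken as the smallest detectable amount, equal 0.0883 to 0.138 CPM (counts scaled to a common library size, with TMM, trimmed mean of M-values, factors). These floors cover counting error only, and all 10 genes lay above them in every library. The 6WP libraries stood apart from each other: the median absolute difference between replicates over all tested genes was 0.28 on the log2 scale, against 0.12 in WT and 0.13 in AM cells. All 10 markers of prostate luminal cells had counts in every library. Their summed level was 3138 to 3303 CPM in WT, 1920 to 2265 in AM and 2503 to 3665 in 6WP cells. Fibroblast markers summed to 17.1 to 20.98 CPM in WT, 2.27 to 3.40 in AM and 3.42 to 5.57 in 6WP cells, immune markers to 3.35 to 4.004 CPM and endothelial markers to at most 0.138 CPM. The leukocyte markers PTPRC and CD3E and the endothelial markers CDH5 and KDR were at 0 counts in all libraries. Luminal markers were lower for 6 and higher for 1 of 10 genes in AM than in WT libraries. Another comparison, 6WP against AM, had 4 higher and 1 lower, with 0 passing between 6WP and WT. The shares of all tested genes that passed were 17.7%, 21.3% and 3.00%, in the same order. Of 5 tested fibroblast markers 2 were lower in AM and 2 in 6WP libraries than in WT, and 1 of 2 tested immune markers was lower in AM than in WT. The part of these shifts in the results below was not tested. In bulk RNA, fewer cells of a kind, such as cycling cells, and less RNA per cell cannot be told apart. Nothing in the labels says that replicates came from separate cultures, so the p-values measure the spread between these libraries, which may be technical.

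In 6WP against AM cells, CCND3, LMNB1, CDKN2C and RB1 fell, and 0 of the 10 genes rose (edgeR's quasi-likelihood test, adjusted p under 0.05 over all 14672 genes). The median log2 fold change of the 10 was -0.41, against 0.05 over all tested genes, of which 21.3% passed, 9.68% as lower and 11.7% as higher. In AM against WT cells CCND3 and RB1 rose and 0 of the 10 fell, where 17.7% of all tested genes passed, 7.74% as higher and 9.93% as lower, and the median log2 fold change of the 10 was 0.44, against -0.00227 over all tested genes. In 6WP against WT cells 0 of the 10 genes passed, where 3.00% of all tested genes did (1.63% as higher and 1.37% as lower), and the median was 0.0076 against 0.013. There, 1 of the 10, CDKN1C, had an unadjusted p under 0.05, as had at least 2331 of the 14672 tested genes. The Wald test of DESeq2 also called 0 of the 10 in this comparison. The libraries of the compared groups did not overlap for 4 of the 10 genes in 6WP against WT (50.7% of all tested genes), for 7 in 6WP against AM (62.3%) and for 8 in AM against WT (73.8%). The comparisons share libraries, so their values are not independent of each other. Leaving out either AM library reduced the 4 falls of 6WP against AM cells to 0, and leaving out either WT library reduced them to 3. Without 6WP replicate 1, 6 genes fell and 1 rose, and without 6WP replicate 2, 4 fell and 2 rose. The 2 rises of AM against WT cells became 0 without any one of the WT or AM libraries. Without either 6WP library, and with only these 2 groups in the fit, CCND3, RB1, LMNB1, CDKN2C and CDKN2D rose and CCND1 and CDKN2A fell in AM against WT cells. Without 6WP replicate 1, 3 of the 10 genes differed between 6WP and WT cells, and without 6WP replicate 2, 2 did. A group left with 1 library is assumed to vary like the others. For 6WP this does not hold, since its pair differed by a median of 0.28 in log2 CPM, against 0.12 in WT and 0.13 in AM. With 1 6WP library left, the spread is thus too small for 6WP cells. A pass of 6WP against another group in such a fit, here or below, is not read as a difference.

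**Figure D1:**
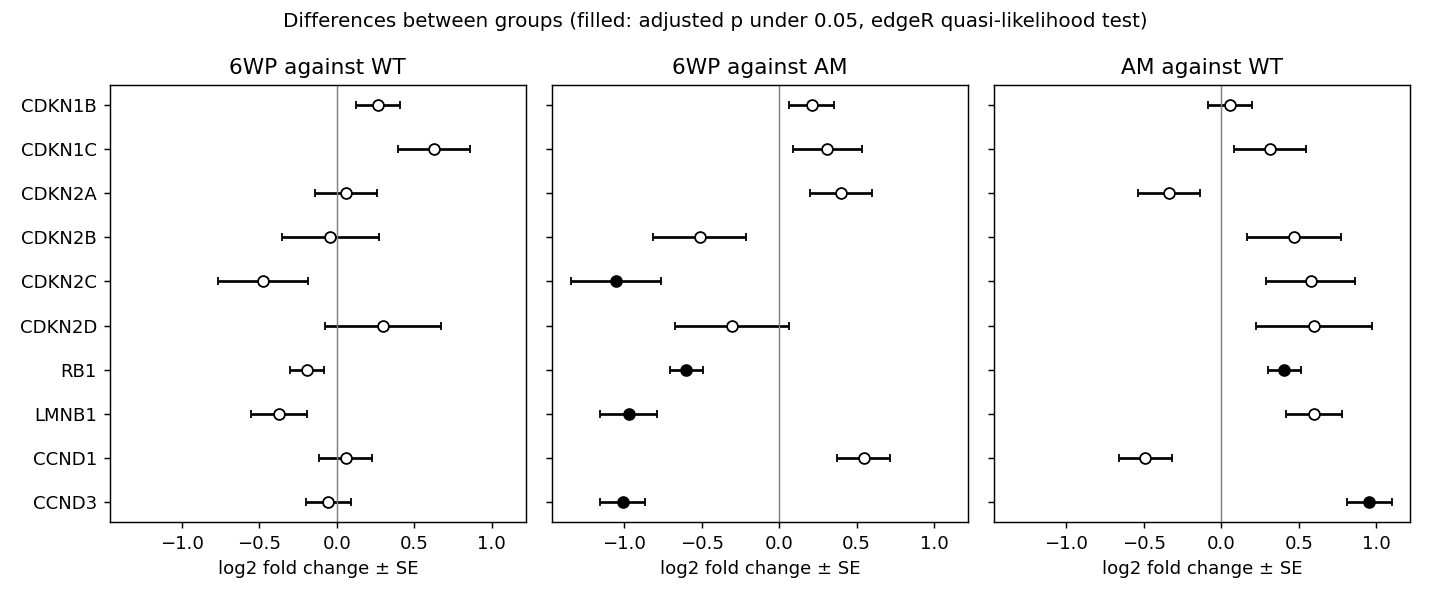
Log2 fold change (x axis, with its SE) of each of the 10 genes (y axis) in the 3 comparisons, filled where the adjusted p of edgeR's quasi-likelihood test was under 0.05. Filled points stand for the 4 falls of 6WP against AM cells and the 2 rises of AM against WT cells, and 6WP against WT has 0 filled points.

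Of the D-type cyclins CCND3 passed the test in both comparisons with AM cells, and CCND1 in neither. CCND3 (chromosome 6, 41934934 to 42050357, minus strand), which encodes cyclin D3, had 41.7 and 40.9 CPM in the WT libraries, 74.0 and 86.1 in AM and 44.3 and 35.3 in 6WP. Both AM libraries lay above all 4 others, and the 6WP libraries lay on either side of WT. CCND3 rose in AM against WT cells by 0.96 on the log2 scale (SE 0.14, edgeR quasi-likelihood test, adjusted p = 0.00736). It fell in 6WP against AM cells by 1.01 (SE 0.14, adjusted p = 0.00528 from the same test). Between 6WP and WT cells the log2 fold change was -0.05, with a 95% interval from -0.38 to 0.28. Intervals here and below are per gene and not adjusted over all tested genes. They can thus exclude 0 where the adjusted p did not pass.

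CCND1 (chromosome 11, 69641156 to 69654474, plus strand) encodes cyclin D1, the D-type cyclin with the most counts here. It had 1878 and 2018 CPM in WT, 1414 and 1362 in AM and 1666 and 2390.3 in 6WP libraries. Both AM libraries lay below all others, and the 6WP libraries again lay on either side of WT. The log2 fold change was -0.49 in AM against WT (SE 0.17, 95% interval from -0.88 to -0.10, edgeR quasi-likelihood adjusted p = 0.0830) and 0.55 in 6WP against AM (SE 0.17, 95% interval from 0.15 to 0.94, adjusted p = 0.0549). Neither passed the threshold after adjustment, and 6WP against AM did pass with upper quartile scaling, library size only, no filter and DESeq2, at adjusted p between 0.0157 and 0.0385, and without 6WP replicate 1. Over all 14 alternatives this adjusted p lay between 2.07e-05 and 0.245. The 6WP value against AM was 0.78 without 6WP replicate 1 and 0.24 without replicate 2. AM against WT passed without a filter, with DESeq2, with only these 2 groups and without either 6WP library, in a range of adjusted p from 0.000205 to 0.333 over all alternatives. Exons of CCND1 share 10.4% of their bases with LTO1 on the opposite strand, and the strand setting of the counting is not given in the sources used here.

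Within a library, the ratio of the cyclins does not depend on the scaling. CCND3 had 2.22 and 2.03 counts per 100 counts of CCND1 in WT, 5.24 and 6.32 in AM and 2.66 and 1.48 in 6WP libraries. The AM libraries were thus separate from all others, and the 6WP libraries enclosed the WT values. The ratio was not tested. By the rule of highest correlation with CCND3 over the 6 libraries, its nearest genes were USP39, COMMD4, HAUS7, MAGEA4 and DOLK, with Pearson's r of 0.995 to 0.999. With 6 libraries this is a weak criterion, since 494 genes (3.37% of those tested) had r above 0.95.

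**Figure D2:**
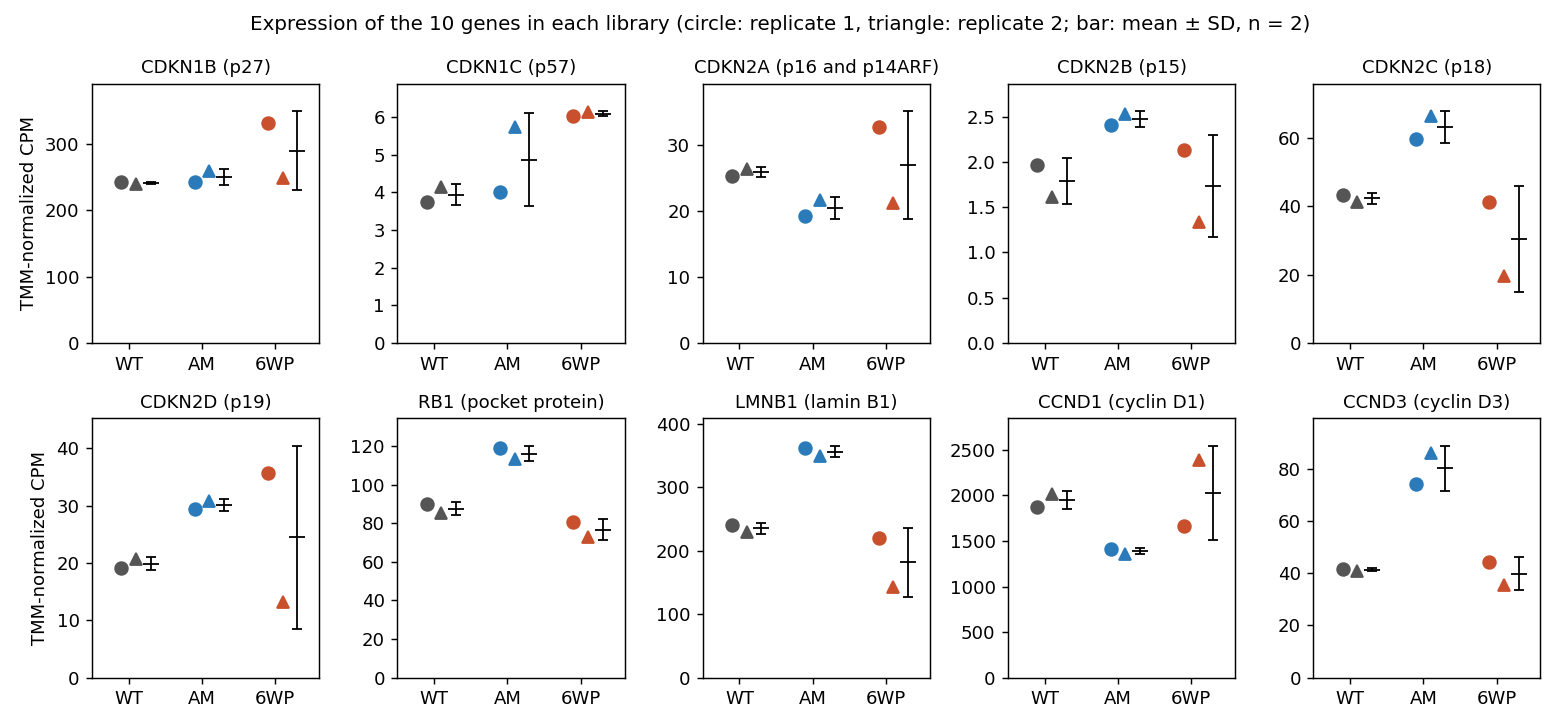
TMM-normalized CPM (y axis, from 0) of the 10 genes in the 6 libraries, with circles for replicate 1, triangles for replicate 2 and the mean ± SD (n = 2) beside them. In AM cells both points of CCND3, RB1, LMNB1, CDKN2C and CDKN2B lie above all others. The 6WP points of CDKN2D are the farthest apart of all members relative to their mean.

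RB1 (chromosome 13, 48303744 to 48599436, plus strand) encodes the pocket protein that cyclin D kinases phosphorylate. Its level was 90.0 and 85.1 CPM in WT, 119 and 113 in AM and 80.5 and 72.8 in 6WP libraries. The 3 groups did not overlap, with AM highest and 6WP lowest. RB1 rose by 0.41 on the log2 scale from WT to AM cells (SE 0.11, edgeR quasi-likelihood test, adjusted p = 0.0377). In 6WP against AM cells it fell by 0.60 (SE 0.11, adjusted p = 0.0102 from the same test), and between 6WP and WT cells the log2 fold change was -0.19 (95% interval from -0.44 to 0.06). The rise in AM cells missed the threshold with upper quartile scaling (adjusted p = 0.0774) and with library size only (adjusted p = 0.0758), within a range of 0.00041 to 0.286 over all alternatives. RB1 differed least between the 6WP replicates of the genes that fell, by -0.14 in log2 CPM.

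LMNB1 (chromosome 5, 126776623 to 126837020, plus strand) encodes lamin B1, whose loss is a widely used mark of senescent cells. The WT libraries held 241 and 229 CPM, the AM libraries 362 and 349 and the 6WP libraries 219.7 and 143. Every AM library was above every WT library, and every 6WP library was below every WT library. LMNB1 fell by 0.97 on the log2 scale in 6WP against AM cells (SE 0.18, edgeR quasi-likelihood test, adjusted p = 0.0118). It was 0.60 in AM against WT (SE 0.18, 95% interval from 0.18 to 1.02, adjusted p = 0.0573), which passed with the replicate number as a block (adjusted p = 0.0411), without a filter (0.0214), with DESeq2 (0.0176), with only these 2 groups and without either 6WP library, in a range of 8.58e-06 to 0.305 over all alternatives. Against WT cells the 6WP value was -0.37 (95% interval from -0.79 to 0.05). This difference rests on 6WP replicate 2: without replicate 1 the value was -0.71 and passed, and without replicate 2 it was -0.10.

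Among 15 tested genes of the nuclear lamina, 5 were lower and 2 higher in 6WP than in AM cells. Against WT cells, 4 were higher and 2 lower in AM cells, and 1 was lower in 6WP cells. All tested genes passed at shares of 21.3%, 17.7% and 3.00% in these comparisons, in the same order. ICMT, which methylates the C terminus of prenylated lamins, had log2 fold changes of 0.48 in AM against WT and -0.62 in 6WP against AM, and ZMPSTE24, the prelamin A protease, fell by 0.54 in 6WP against AM. BANF1, a chromatin-bridging partner of lamina proteins, rose by 0.62 in AM against WT. SYNE1, which encodes nesprin-1, fell by 2.26 in AM against WT cells and was higher by 0.996 in 6WP than in AM cells. LEMD3, an inner nuclear membrane protein, fell by 0.49 in 6WP against WT cells. The lamins LMNA and LMNB2 passed in 0 of the 3 comparisons, with log2 fold changes between -0.39 and 0.27.

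Of the 4 INK4 genes, CDKN2C passed the test in 6WP against AM cells and the other 3 passed in 0 of the 3 comparisons. CDKN2C (chromosome 1, 50960745 to 50974634, plus strand), which encodes p18, had 43.5 and 41.2 CPM in WT, 59.9 and 66.5 in AM and 41.4 and 19.5 in 6WP libraries. Both 6WP libraries lay below both AM libraries, and 6WP replicate 1 was within the WT range. CDKN2C had a log2 fold change of -1.05 in 6WP against AM cells (SE 0.29, edgeR quasi-likelihood test, adjusted p = 0.0372). With only the libraries of these 2 groups in the fit the adjusted p was 0.0786, and with library size only 0.0528, in a range of 6.09e-08 to 0.187 over the alternatives. The value was -0.63 without 6WP replicate 2 and -1.70 without replicate 1. In AM against WT it was 0.58 (95% interval from -0.08 to 1.24) and in 6WP against WT -0.48 (from -1.14 to 0.19), with -1.12 without 6WP replicate 1, where it passed, and -0.0346 without replicate 2. Exons of CDKN2C share 20.4% of their bases with a long non-coding RNA gene, ENSG00000290102, on the opposite strand.

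CDKN2D (chromosome 19, 10566460 to 10569059, minus strand), which encodes p19, had 19.1 and 20.7 CPM in WT, 29.4 and 30.9 in AM and 35.7 and 13.2 in 6WP libraries. The 6WP libraries were the highest and the lowest of all 6. Their gap of -1.43 in log2 CPM (replicate 2 minus 1) exceeded that of 98.2% of tested genes. Against WT cells the fitted log2 fold change was 0.30 (95% interval from -0.57 to 1.16). It was -0.59 without 6WP replicate 1 and 0.84 without replicate 2. No direction can be given for 6WP cells. In AM against WT the value was 0.60 (95% interval from -0.26 to 1.46, edgeR quasi-likelihood adjusted p = 0.286).

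CDKN2A (chromosome 9, 21967752 to 21995301, minus strand), whose transcripts encode p16 and, from the distal promoter printed above, the MDM2 inhibitor p14ARF, had 25.3 and 26.4 CPM in WT, 19.3 and 21.6 in AM and 32.7 and 21.2 in 6WP libraries. AM cells were lowest on average, and 6WP replicate 2 lay within the AM range. The log2 fold change was 0.06 in 6WP against WT (95% interval from -0.40 to 0.52), 0.40 in 6WP against AM (from -0.06 to 0.86) and -0.34 in AM against WT (from -0.80 to 0.13). None of these passed the test. The 6WP value against AM was 0.05 without 6WP replicate 1 and 0.65 without replicate 2, where it passed, and against WT it was -0.29 and 0.34. AM against WT passed with only these 2 groups and without either 6WP library. Counts per symbol do not separate the transcripts of the 2 products, and 15.3% of the exon bases are shared with CDKN2B-AS1 on the opposite strand, which itself had 5 to 15 counts per library.

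CDKN2B (chromosome 9, 22002903 to 22009305, minus strand), the neighbour of CDKN2A that encodes p15, had 35 to 86 counts per library and the lowest level of the 10 genes. It had 1.96 and 1.61 CPM in WT, 2.41 and 2.53 in AM and 2.13 and 1.34 in 6WP libraries. Only the AM libraries were separate from the others. The log2 fold change was -0.04 in 6WP against WT (95% interval from -0.76 to 0.68), -0.51 in 6WP against AM (from -1.20 to 0.18) and 0.47 in AM against WT (from -0.23 to 1.17), and 0 of the 3 passed. Against AM the 6WP value was -0.89 without 6WP replicate 1, where it passed, and -0.24 without replicate 2.

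Among 23 tested regulators and neighbours of the INK4 locus, mostly Polycomb proteins, 1 was higher in 6WP than in WT cells, 6 were higher and 2 lower in 6WP than in AM cells, and 3 were lower in the comparison of AM with WT. The Polycomb subunit PHC1 fell by a log2 fold change of 0.92 in AM against WT cells and was higher by 0.88 in 6WP than in AM cells. KDM6B, a demethylase that removes the Polycomb histone mark, had values of -0.62 and 0.86 in the same comparisons. CBX7, known as a repressor of CDKN2A, fell by 0.46 in AM against WT cells. PHC2 rose by 0.61 in 6WP against WT cells. The median log2 fold change of the list was 0.06 in 6WP against WT, 0.10 in 6WP against AM and -0.04 in AM against WT. Medians over all tested genes were 0.013, 0.05 and -0.00227, in this order. Beside the 1, 8 and 3 of the 23 listed genes that passed, 3.00%, 21.3% and 17.7% of all tested genes did.

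The Cip/Kip gene CDKN1B (chromosome 12, 12685498 to 12722369, plus strand) encodes p27, which inhibits cyclin E and cyclin A kinases. It had 242 and 240.2 CPM in WT, 242 and 259.6 in AM and 332 and 248 in 6WP libraries. Replicate 1 of the 6WP cells was the highest library, and replicate 2 lay within the AM range. The log2 fold change was 0.27 in 6WP against WT (95% interval from -0.07 to 0.60) and 0.21 in 6WP against AM (from -0.12 to 0.54), and neither passed. Without 6WP replicate 1 these values were 0.04 and -0.02, and without replicate 2 they were 0.46 and 0.38 and passed, so that the difference rested on replicate 1. AM and WT cells differed by 0.06 (95% interval from -0.28 to 0.39).

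CDKN1C (chromosome 11, 2883213 to 2885775, minus strand), an imprinted gene that encodes p57, had 84 to 195 counts per library. Its level was 3.75 and 4.13 CPM in WT, 4.004 and 5.74 in AM and 6.04 and 6.13 in 6WP libraries. Both 6WP libraries lay above all others, with the closest 6WP replicates of any member. The log2 fold change was 0.63 in 6WP against WT (SE 0.23, 95% interval from 0.09 to 1.16, unadjusted p = 0.0263, edgeR quasi-likelihood adjusted p = 0.166). It did not pass in any of the 14 alternatives, where the adjusted p lay between 0.0624 and 0.625. The 6WP value against AM was 0.31 (95% interval from -0.20 to 0.83), with 0.09 without AM replicate 1 and 0.61 without AM replicate 2. AM and WT cells differed by 0.32 (95% interval from -0.22 to 0.85), with 0.53 and 0.0085 without these libraries.

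CDKN1A, which encodes p21, the Cip/Kip inhibitor that p53 induces, is given for comparison. It had 80.9 and 81.9 CPM in WT, 80.6 and 65.6 in AM and 73.6 and 32.1 in 6WP libraries, and passed in 0 of the 3 comparisons. The difference of 6WP from WT was -0.62 (95% interval from -1.36 to 0.11), with -1.34 without 6WP replicate 1 and -0.15 without replicate 2, so that it rested on replicate 2. Of the 17 tested genes that control turnover or transcription of CDK inhibitors, 3 were higher and 2 lower in 6WP than in AM cells. Against WT cells, 1 was higher and 2 lower in AM cells, and 1 was lower in 6WP cells. The shares of all tested genes that passed were 21.3% in 6WP against AM, 17.7% in AM against WT and 3.00% in 6WP against WT. SKP2, the ubiquitin ligase subunit that recognises p27, fell by a log2 fold change of 0.68 in 6WP against AM cells. The FOXO factors, which activate CDKN1B, differed among themselves. FOXO1 fell against WT, with log2 fold changes of -0.88 in AM and -0.82 in 6WP cells, FOXO4 had -1.63 in AM against WT, and FOXO3 and FOXO4 were higher by 0.80 and 0.94 in 6WP than in AM cells. UBAC1, a subunit of a ligase that ubiquitinates p27, rose by 0.49 in AM against WT cells.

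Among the kinases and G1 cyclins, 5 of 10 tested genes were lower and 0 higher in 6WP than in AM cells. Against WT cells, 2 were higher and 1 lower in AM cells, and 1 was lower in 6WP cells. Over all tested genes, 21.3%, 17.7% and 3.00% passed in these comparisons, in the same order. CDK6, a catalytic partner of the D-type cyclins, had 32.9 and 32.3 CPM in WT, 11.1 and 11.2 in AM and 18.4 and 12.8 in 6WP libraries. It fell by 1.55 on the log2 scale in AM against WT cells (SE 0.18, edgeR quasi-likelihood test, adjusted p = 0.00364), and 6WP cells differed from WT by -1.06 (SE 0.18, adjusted p = 0.0270). CDK4, its paralog, rose by 0.49 in AM against WT cells. CCNE2, CCNA2 and CDC25A, which drive the entry into S phase, fell in 6WP against AM cells, with log2 fold changes of -1.64, -1.37 and -1.34, and CDC25A rose by 1.11 in AM against WT cells. CCND2, the remaining D-type cyclin, had 0 counts in all 6 libraries.

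Of 17 tested genes of the RB family, E2F factors and their partners, 7 were lower and 2 higher in 6WP than in AM cells, 1 was higher and 1 lower in AM than in WT cells, and 0 passed in 6WP against WT cells, where 2 had an unadjusted p under 0.05 and 0 to 6 passed over the alternatives. Beside these counts, 21.3%, 17.7% and 3.00% of all tested genes passed, in the same order of comparisons. In 6WP against WT, at least 2331 of the 14672 tested genes had an unadjusted p under 0.05. The largest changes in 6WP against AM cells were falls of E2F8, E2F2 and E2F7, with log2 fold changes of -1.46, -1.32 and -1.22. The E2F partner TFDP1 rose by 0.41 and TFDP2 fell by 0.84 in AM against WT cells.

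Proliferation genes, whose decline accompanies senescence, were followed in a list of 25. In AM against WT cells 9 were higher and 0 lower at an adjusted p under 0.05, and all 25 had a positive log2 fold change, with a median of 0.61. TYMS, which makes thymidylate, rose by 1.38, MKI67, which encodes the Ki-67 antigen, by 1.03 and UHRF1, a factor of maintenance methylation, by 0.85. In 6WP against AM cells 11 were lower and 0 higher, with a median of -0.92, and RRM2, TYMS and PCNA fell, with log2 fold changes of -1.89, -1.57 and -1.36. In 6WP against WT cells MCM4 fell by 0.72 and the other 24 did not pass. Over all tested genes, 17.7% passed in AM against WT, 21.3% in 6WP against AM and 3.00% in 6WP against WT. The 9 rises in AM cells were lost without any one WT or AM library and became 25 without either 6WP library.

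The 6WP replicates differed in these genes. All 25 were lower in replicate 2 than in replicate 1, by a median of -1.15 on the log2 scale, against -0.00843 over all tested genes. Relative to the WT mean, the median of the list was 0.15 in 6WP replicate 1 and -0.86 in replicate 2, and 0.60 and 0.64 in the AM libraries. A fit with 1 6WP library takes its spread from the closer WT and AM pairs, so passes in it are not read as differences. CDKN2C, CDKN2D, LMNB1, CDKN2A, CDKN2B, CDKN1B, CCND3 and RB1 were also lower in 6WP replicate 2 than in replicate 1, by -1.08 to -0.14 apart from CDKN2D, while CCND1 was higher by 0.52 and CDKN1C by 0.02. In absolute size, the gap exceeded that of 27.5% of tested genes for RB1, 56.8% for CCND3 and 67.9% for CDKN1B. For LMNB1, CDKN2A and CDKN2B these shares were 82.5%, 83.0% and 83.9%, and for CDKN2C and CDKN2D 95.3% and 98.2%. The part of proliferation in the members' values was not tested.

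**Figure D3:**
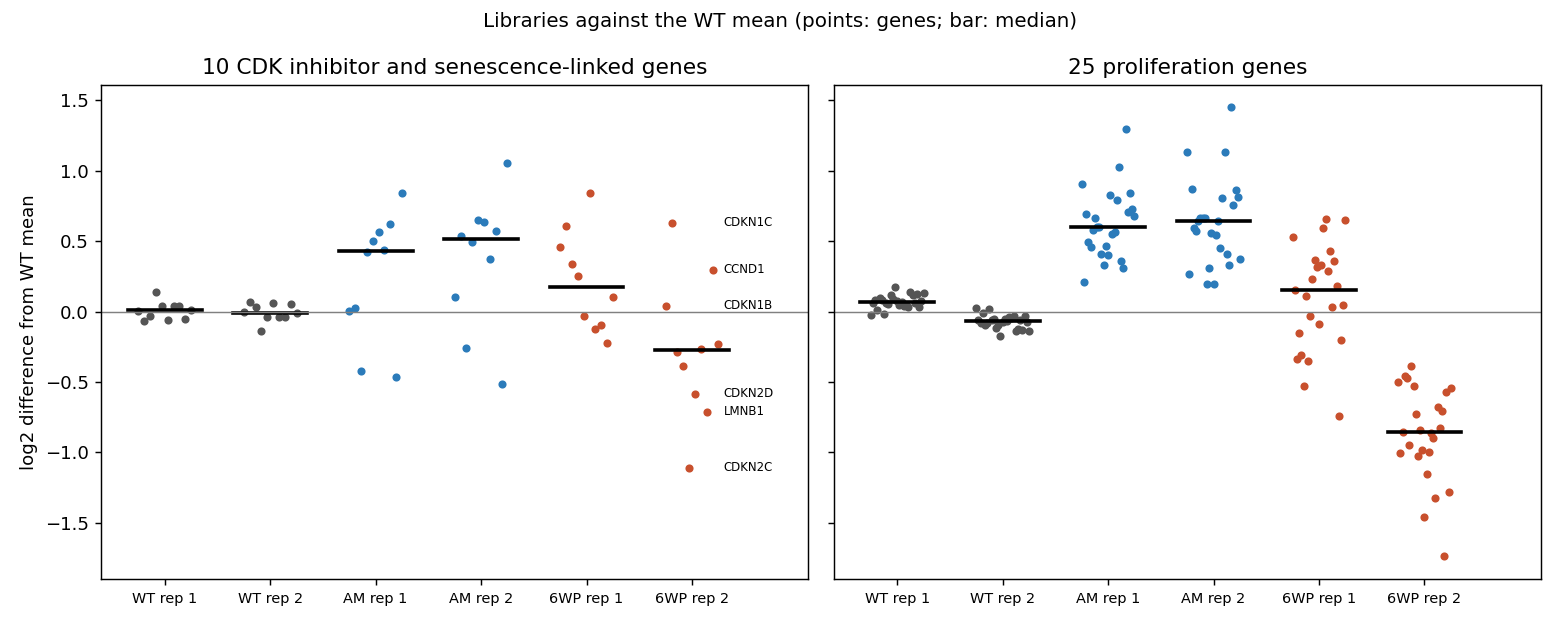
Log2 difference of each gene from its WT mean (y axis) in the 6 libraries (x axis), for the 10 genes described and for 25 proliferation genes, with the median as a bar. In 6WP replicate 2 the proliferation genes have a median of -0.86 and CDKN2C, LMNB1 and CDKN2D are the lowest members, whereas 6WP replicate 1 has a median of 0.15.

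Markers that senescent cells are known to raise, most of them secreted, were read in a list of 32, of which 15 passed the filter. In 6WP against WT cells GDF15, a stress cytokine, rose by a log2 fold change of 1.88 and VEGFA, an angiogenic factor, by 1.16, and 0 fell. The 6WP libraries stood apart for GDF15, with 90.5 and 35.4 CPM against 15.3 and 18.97 in WT, and were closer for VEGFA, with 120.1 and 102 against 48.5 and 51.4. Against AM cells 6 were higher in 6WP cells, among them AREG, TNFRSF11B and HGF at 1.89, 1.60 and 1.51, and 1 was lower. AREG had 9.26 and 2.43 CPM in the 6WP, 1.77 and 1.41 in the AM and 3.35 and 2.48 in the WT libraries, so that 6WP replicate 2 lay below WT. Mean CPM of HGF was 231 in 6WP, 81.1 in AM and 269 in WT cells. TNFRSF11B, with 15 to 69 counts per library, had means of 1.72, 0.573 and 2.57. Both 6WP means were thus above AM and below WT. Between AM and WT cells 1 was higher and 3 lower: IGFBP3 had a log2 fold change of 2.36, TNFRSF11B of -2.18 and HGF of -1.73. Of all tested genes, 3.00% passed in 6WP against WT, 21.3% in 6WP against AM and 17.7% in AM against WT. IL6, IL1A, IL1B, CCL2, CSF2, MMP3 and MMP10 had 0 counts in all 6 libraries, and CXCL8 had at most 2. GLB1, which encodes lysosomal beta-galactosidase, passed in 0 of the 3 comparisons, with log2 fold changes between -0.17 and 0.10.

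Per kilobase of exon, the levels of the 10 genes spanned a wide range. CCND1 had 409 ± 20.7 CPM per kb in WT cells (SD, n = 2), followed by LMNB1 with 64.7 ± 2.32 and CDKN1B with 26.1 ± 0.155. CDKN2C, RB1 and CDKN2D came next with 14.03 ± 0.534, 13.6 ± 0.546 and 13.2 ± 0.756, which did not differ beyond their spread. CCND3 had 7.17 ± 0.0887 and CDKN2A 6.66 ± 0.200, and CDKN1C and CDKN2B were the lowest with 1.59 ± 0.110 and 0.447 ± 0.0630. In AM cells the order was the same except that CDKN2D and RB1 changed places, at 20.0 ± 0.701 and 18.05 ± 0.596. In 6WP cells CDKN2D, RB1 and CDKN2C lay at 16.2 ± 10.6, 11.9 ± 0.845 and 10.1 ± 5.13, and the order among them was within the spread. Exon lengths were taken from GENCODE 44, which may not be the annotation used for counting, and long isoforms lower the value of a gene such as CDKN1B.

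**Figure D4:**
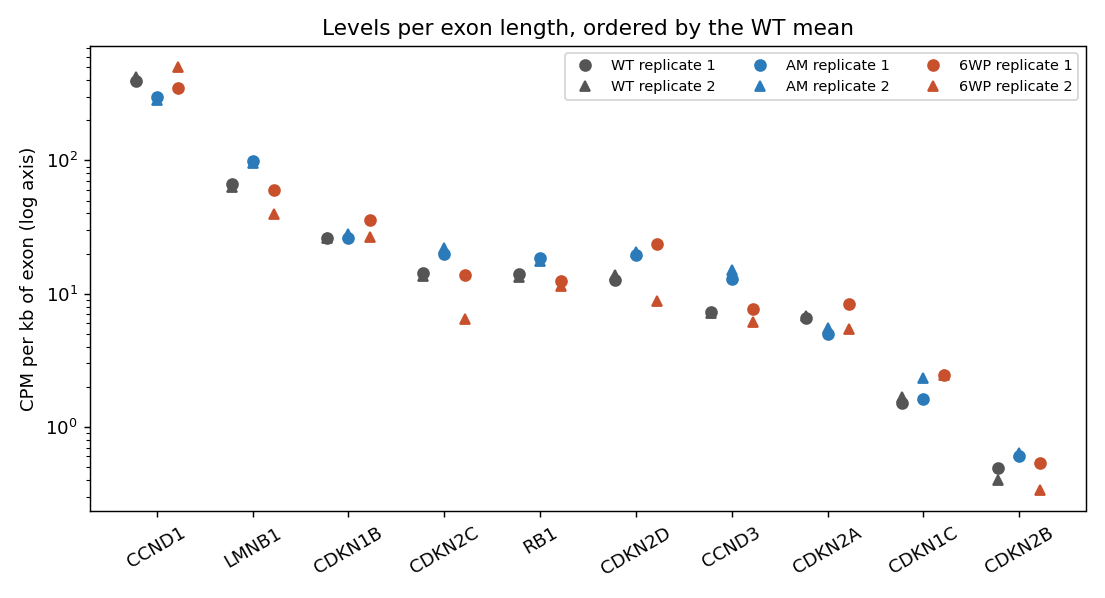
CPM per kb of exon (y axis, log scale) of the 10 genes, ordered by the WT mean, with circles for replicate 1 and triangles for replicate 2 in the colours of the 3 groups. CCND1 is highest and CDKN2B lowest in every library, and the neighbours CDKN2C, RB1 and CDKN2D overlap in WT cells.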

How the data were processed

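RNA of 22Rv1 cells was sequenced by the authors as single end reads after stranded library preparation, with 2 libraries per group. The authors' methods give alignment to hg38 with STAR 2.5.3a, StringTie 1.3.3, quantification, TMM normalization and edgeR 3.22.3. The submitters' processing notes also name featureCounts 1.5.3 and Subread. The annotation, the strand setting and the filters are not given in the sources used here. The authors deposited a table of unnormalized read counts for 29804 gene symbols, and 0 of its columns were left out.

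From these counts, TMM factors were computed and genes were kept by filterByExpr with the 3 groups. A quasi-likelihood model (edgeR 4.0.16, R 4.3.3) was fitted to all 6 libraries without covariates, with Benjamini-Hochberg adjustment over 14672 genes and a threshold of 0.05, two-sided. Standard errors are the log2 fold change over the square root of F. The 95% intervals use the degrees of freedom of the test and are not adjusted over the tested genes. CPM were TMM-normalized, and log2 CPM used a prior count of 2. The 14 alternatives were DESeq2 size factors, upper quartile scaling, library size only, no filter, a minimum of 10 counts per library, DESeq2 1.42.0 (Wald test), only the 2 groups compared, a replicate block, and each of the 6 libraries left out. The pipeline was tested on simulated counts. Gene positions, exon lengths and overlaps are from GENCODE 44 on GRCh38.

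The 10 genes and the 11 lists (7 of pathways, 4 of cell type markers) were chosen from general knowledge with earlier results of these data known. All 10 genes were named in all comparisons, with CDKN1A, the 5 genes nearest to the member with the smallest p, and up to 3 genes per list and comparison with the largest absolute log2 fold change among those past the threshold. A gene that this rule names is not reported here. Other genes named, such as LMNA, LMNB2, GLB1, CCND2 and the cytokines at 0 counts, were added after their values were seen. CXCL8 is listed under its older symbol IL8. Motif words were chosen after the counts were seen, and the GC box after the E2F and cell cycle homology words had given no match.

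Replicate numbers are shared by the groups in the labels, but nothing ties equal numbers to a shared culture or day.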

Additional observations from a re-analysis of the deposited data

How the results depend on the processing

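No choice of scaling, filter, test or covariates changed the 0 of 10 genes called in 6WP against WT cells, and leaving out 1 library at a time gave 0 to 3. In 6WP against AM cells the 4 genes called became 3 to 5 under these choices and 0 to 7 with 1 library left out. In AM against WT cells the 2 genes called became 1 with upper quartile scaling, 1 with library size only, 4 without a filter, 4 with the Wald test of DESeq2 and 7 with only the 2 groups compared, and 0 to 7 with 1 library left out. By construction, leaving out a WT or AM library leaves the spread to be estimated with the 6WP pair, and leaving out a 6WP library removes that pair. With the replicate number as a block, 0, 4 and 3 genes were called in the 3 comparisons in this order, and LMNB1 in AM against WT was the member gained. The correlation of replicate differences across genes was 0.04 between WT and AM, 0.09 between WT and 6WP and -0.02 between AM and 6WP cells. These values show no replicate effect shared by the groups. With 2 libraries per group they cannot exclude a pairing with a small effect.

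Directions were reversed in 11 of 420 pairs of a member and an alternative, all for values that had not passed as reported. Against WT, the 6WP value became 0.11 for CDKN2B without WT replicate 1, -0.29 for CDKN2A and -0.59 for CDKN2D without 6WP replicate 1, and 0.25 for CDKN2B, -0.23 for CCND1 and 0.10 for CCND3 without 6WP replicate 2. With 1 library left out the lowest and highest of these values were -0.29 and 0.34 for CDKN2A, -0.42 and 0.25 for CDKN2B, -0.59 and 0.84 for CDKN2D, -0.23 and 0.30 for CCND1 and -0.23 and 0.10 for CCND3. Against AM, the range was -0.0156 (without 6WP replicate 1) to 0.38 for CDKN1B and -1.19 to 0.22 (without 6WP replicate 2) for CDKN2D. For CDKN1B in AM against WT it became -0.0354 with upper quartile scaling, -0.00407 with library size only and -0.00869 without AM replicate 2, in a range up to 0.0913 with 1 library left out. The cause was not tested.

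Over all genes, 440 were called in 6WP against WT (0 to 3801 over the alternatives), 3131 in 6WP against AM (115 to 6799) and 2593 in AM against WT (46 to 6714). In 6WP against AM cells 54.6% of the called genes were higher, and 68.2% with upper quartile scaling. In AM against WT cells 43.8% were higher, 27.3% with upper quartile scaling and 30.5% with library size only. Proliferation genes called ranged over 0 to 25, 1 to 25 and 0 to 25 in the 3 comparisons, against 1, 11 and 9. In the same order of comparisons, the counts ranged over 0 to 6, 0 to 7 and 0 to 7 for G1 cyclins and kinases (1, 5 and 3 as reported), 0 to 6, 0 to 12 and 0 to 12 for the RB family and E2F (0, 9 and 2), 0 to 9, 0 to 11 and 0 to 10 for turnover of inhibitors (1, 5 and 3), 0 to 8, 0 to 15 and 0 to 9 for the INK4 locus (1, 8 and 3), 0 to 5, 0 to 12 and 0 to 11 for the lamina (1, 7 and 6), and 0 to 9, 0 to 11 and 0 to 11 for senescence markers (2, 7 and 4). Depth limits CDKN2B and CDKN1C most, with 35 to 195 counts.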
